A study of Rattus norvegicus with 16 samples.

Results

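The messenger RNAs of the translation initiation factors were followed in rat gustatory cortex after drinking. The genes were taken by name alone, as all probe sets that the array annotation pairs with exactly 1 gene and whose symbol begins with Eif and a digit. This gave 45 probe sets of 44 genes, out of 15209 probe sets of 14497 genes that were paired with 1 gene. Eif3h had 2 probe sets, and the brighter one stands for it below. Male Wistar Hola rats, 2 months old by the sample labels and with no genetic alteration named there, were kept on restricted water for 3 days. The methods of the study state an older age. On the day of the test they drank water, a taste they knew, or 0.1% saccharin, a taste new to them, and the gustatory cortex was removed 1 h or 3 h later. There were 4 rats in each of the 4 groups and 1 Affymetrix RaGene 1.1 ST array per rat, 16 in all. Values are the deposited log2 levels, and differences are given as 1 h minus 3 h or as saccharin minus water.

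Initiation is the step of protein synthesis at which a small ribosomal subunit is loaded with the first transfer RNA, brought to the capped end of a messenger RNA and moved along it to the start codon. eIF2 delivers the first transfer RNA, eIF2B recharges eIF2, eIF3 holds the small subunit, eIF4E, eIF4G and eIF4A bind and unwind the capped end, and eIF1, eIF1A, eIF5 and eIF5B act at the start codon and in joining the large subunit. Kinases that phosphorylate eIF2α and proteins that sequester eIF4E slow this step, and control of protein synthesis in the cortex is known for its part in forming taste memory.

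The arrays had medians of 5.08 to 5.16, any pair correlated at 0.994 to 0.997, and 0 of the 120 pairs were identical. All 3 h arrays carry lower array numbers (C365 to C372) than all 1 h arrays (C373 to C380), so time and array number cannot be told apart. Of 8 markers of cortical excitatory neurons, 5 were measured and all 5 lay above the level that 95% of 1268 olfactory and vomeronasal receptor probe sets did not exceed (3.86). The 7 measured markers of striatal neurons, the cells of the structure beside this cortex, also lay above it, as did 13 of 14 measured markers of the leptomeninges. The mean of the striatal markers ranged from 6.06 to 6.26 at 1 h and from 6.26 to 6.37 at 3 h, with no overlap. Of these 7 markers 6 were lower at 1 h and 1 was higher, with a median difference of -0.11 and a largest one of -0.49. Over both tastes 1 of the 7 was called in limma, beside 1.01% of all probe sets. The mean of the leptomeningeal markers ranged from 6.63 to 6.98 at 1 h and from 6.13 to 6.81 at 3 h. All 14 measured leptomeningeal markers were higher at 1 h over both tastes, with a median difference of 0.28 and a largest one of 0.42. Of them, 11 were higher at an unadjusted p under 0.05 in limma, beside 6.25% of all probe sets, and 0 were called. The part of either difference in the results on time was not tested beyond the fits with each marker mean as a covariate. In such tissue samples, fewer cells of a type and less RNA per cell cannot be told apart.

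All 44 initiation factor genes exceeded that receptor level, as did 77.4% of all tested probe sets. The standard deviation between rats of a group had a median of 0.0678 over the 44 genes (0.0358 for Eif4h to 0.160 for Eif4g2), beside 0.0931 over all probe sets tested and 0.0914 over those above the receptor level. Of the 44 genes, 24 have at least 1 pseudogene named after them in RefSeq, up to 11 for Eif5, 10 for Eif4e and 8 for Eif4a1, so their probe sets may share signal with such copies.

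None of the 44 initiation factor genes passed the test between 1 h and 3 h over both tastes. Eif1 and Eif4g1 are not among the 44. In limma with Benjamini-Hochberg adjustment over all 15209 probe sets, 0 of 44 genes were called, beside 1.01% of all probe sets. At an unadjusted p under 0.05 there were 6 of 44 genes, 4 higher at 1 h (6.25% of all probe sets) and 2 lower (5.77%), which is near the share of all probe sets. The median difference of the 44 genes was -0.0046, and 20 of 44 were above 0, beside 50.0% of all probe sets. The widest 95% interval reached a 1.28-fold difference, in Eif4g2, and the intervals of the other 43 genes lay within 1.25-fold either way, as did 97.1% of all probe sets. The 6 genes past the unadjusted threshold were Eif4h, Eif1ax, Eif3e, Eif1b, Eif4g2 and Eif5a. All but Eif1b are named by the rule given under the methods, and Eif1b was added after its values were seen.

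**Figure D1:**
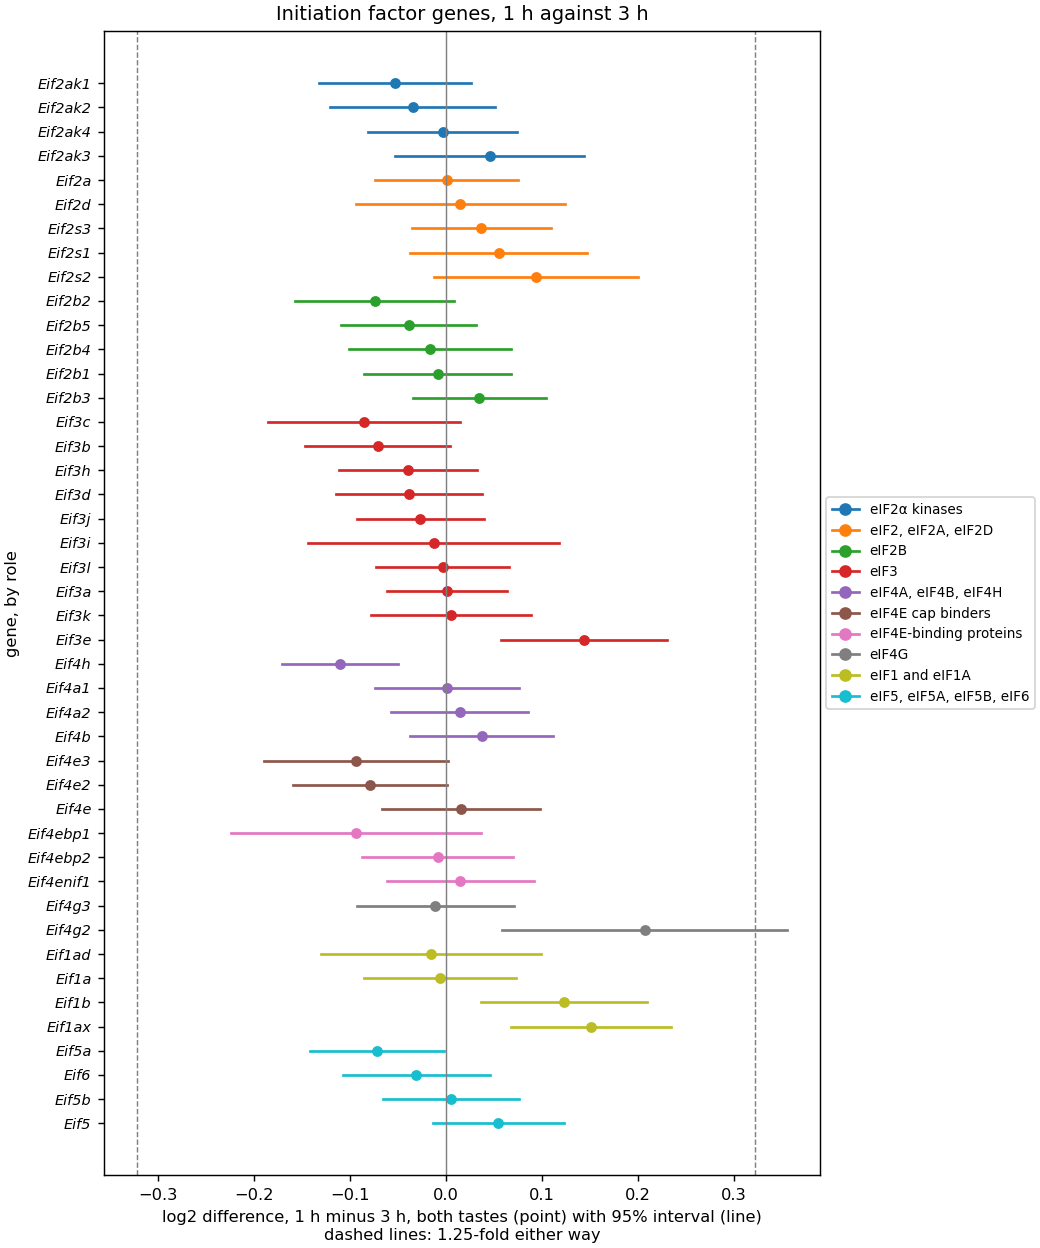
Difference between 1 h and 3 h over both tastes for each of the 44 initiation factor genes (rows, coloured by role; x axis, log2 difference, point with its 95% interval from limma, 8 arrays against 8). Only the interval of Eif4g2 crosses a dashed line at 1.25-fold, and the intervals of 6 genes leave out 0 before any adjustment.

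Among the genes of the eIF4A helicase unit, which unwinds the capped end, Eif4h had the smallest p. eIF4H, its product, stimulates eIF4A. Its probe set (10757786) read 9.50, 9.47, 9.55 and 9.53 at 1 h and 9.57, 9.64, 9.65 and 9.65 at 3 h after saccharin. After water it read 9.53, 9.47, 9.52 and 9.52 at 1 h and 9.56, 9.64, 9.62 and 9.65 at 3 h. Every 1 h array lay below every 3 h array in both tastes, a separation in that direction that 0.197% of all probe sets had, and 1 of the 44 genes. The margin was narrow, with 9.55 the highest value at 1 h and 9.56 the lowest at 3 h. Eif4h was picked by its p in these same arrays, so the separation is not added evidence. The difference was -0.11 ± 0.029 (SE, 95% interval -0.17 to -0.049), with an adjusted p of 0.0840 in limma. Eif4h differed by -0.11 after saccharin (limma, adjusted p = 0.444) and by -0.11 after water (adjusted p = 0.554). The other genes of this unit lay closer to 0. They are the helicases Eif4a1 (9.55e-04) and Eif4a2 (0.015), and Eif4b (0.037), another stimulator of the helicase.

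Of the genes named for eIF1 and eIF1A, factors that act in scanning and start codon choice, Eif1ax and Eif1b were past the unadjusted threshold. Eif1ax encodes the eIF1A of the X chromosome, and its probe set (10938019) read 9.47, 9.29, 9.37 and 9.48 at 1 h and 9.23, 9.34, 9.17 and 9.24 at 3 h after saccharin. The water arrays read 9.44, 9.42, 9.49 and 9.32 at 1 h and 9.19, 9.33, 9.27 and 9.30 at 3 h. The 1 h arrays were mostly the higher ones, but the groups overlapped in each taste. The difference was 0.15 ± 0.040 (SE, 95% interval 0.068 to 0.23), with an adjusted p of 0.0840 in limma, and it was 0.16 after saccharin and 0.14 after water.

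Eif1b, a close relative of eIF1, read 9.05, 9.01, 8.94 and 8.99 at 1 h and 8.74, 8.86, 8.88 and 8.92 at 3 h after saccharin, and its 1 h arrays were all above its 3 h arrays there. Its water values were 8.88, 9.13, 8.96 and 8.86 at 1 h and 8.90, 8.84, 8.81 and 8.87 at 3 h, with overlap. The difference over both tastes was 0.12 ± 0.041 (SE), with an adjusted p of 0.195 in limma. Eif1a (-0.0057) and Eif1ad (-0.015) differed less.

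The largest difference over time belonged to Eif4g2, also called DAP5, an eIF4G relative that does not bind eIF4E. It read 9.40, 9.50, 9.28 and 9.49 at 1 h and 9.10, 9.15, 9.06 and 9.43 at 3 h after saccharin. With water the levels were 9.20, 9.28, 9.30 and 9.50 at 1 h and 9.17, 8.84, 9.38 and 9.16 at 3 h. Single arrays at 3 h reached the 1 h range in each taste, and this gene had the widest spread between rats of all 44. The difference was 0.21 ± 0.070 (SE, 1.15-fold, 95% interval 0.059 to 0.36), with an adjusted p of 0.207 in limma. Eif4g3, a scaffold that does bind eIF4E, differed by -0.011.

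**Figure D2:**
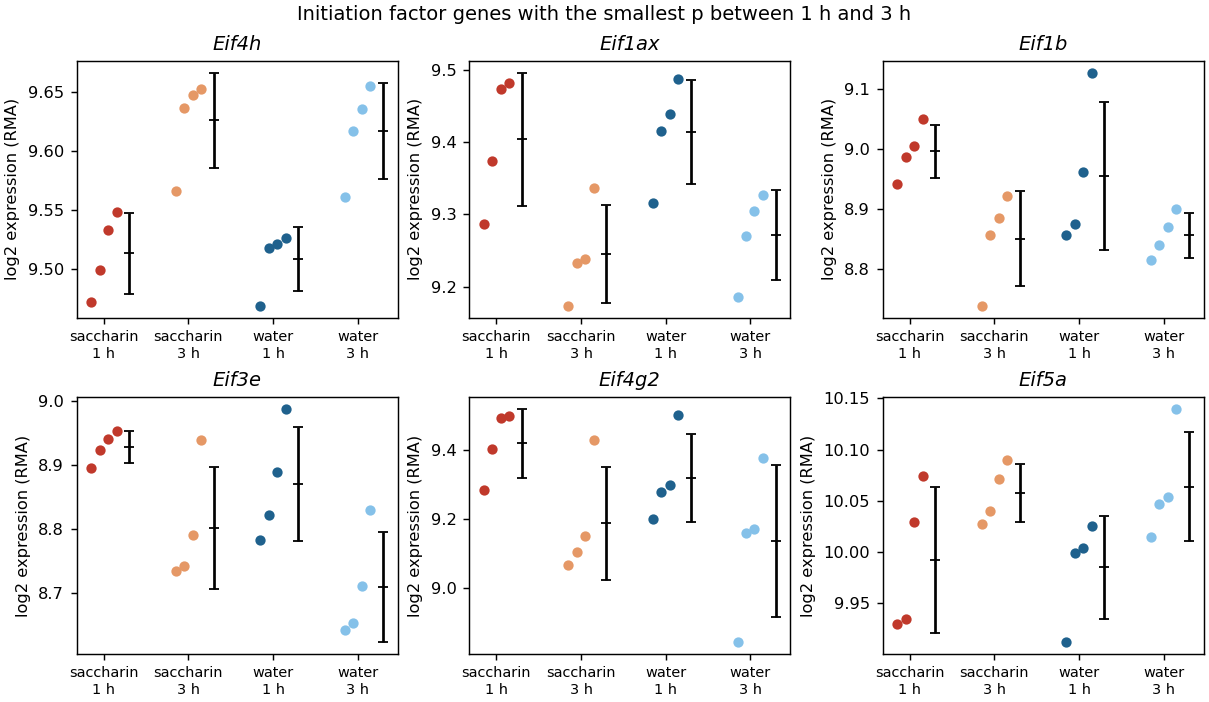
Log2 level of the 6 initiation factor genes with an unadjusted p under 0.05 between 1 h and 3 h over both tastes, in each array (points) with the mean and SD of the 4 arrays of a group (bars; each panel has its own y axis). In the panel of Eif4h every 1 h point is below every 3 h point, from 9.55 down at 1 h and from 9.56 up at 3 h, and the other panels overlap between the times.

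The 10 measured genes of eIF3, the scaffold on the small subunit, had values of both signs in time. Eif3e had a difference of 0.14 ± 0.041 (SE), with an adjusted p of 0.122 in limma, and 7 of the 10 had values below 0. Eif3e read 8.95, 8.94, 8.92 and 8.89 at 1 h and 8.79, 8.94, 8.73 and 8.74 at 3 h after saccharin. After water it read 8.89, 8.82, 8.99 and 8.78 at 1 h and 8.64, 8.65, 8.71 and 8.83 at 3 h. In each taste the highest 3 h array lay within the range of the 1 h arrays. Eif3c and Eif3b, of the core of the complex, had differences of -0.085 and -0.071, and the remaining 7 genes lay between -0.039 (Eif3h) and 0.0053 (Eif3k). The dimmer probe set of Eif3h gave -0.016, the same sign as the brighter one.

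The genes around eIF2 had no member past the unadjusted threshold. Among the 5 genes of eIF2, eIF2A and eIF2D, the difference was largest for Eif2s2, the β subunit of eIF2. It read 8.52, 8.52, 8.53 and 8.43 at 1 h and 8.43, 8.45, 8.24 and 8.33 at 3 h after saccharin. The water arrays read 8.56, 8.43, 8.45 and 8.14 at 1 h and 8.30, 8.37, 8.33 and 8.38 at 3 h. The water arrays spanned a wide range at 1 h that took in all of the 3 h arrays, and the difference over both tastes was 0.094 ± 0.050 (SE), with an adjusted p of 0.488 in limma. With the striatal marker mean as a covariate the difference was 0.31. That mean did not overlap between the times, so this fit separates time from it poorly. Its part in this result was not tested further. Eif2s1, which encodes the α subunit that the stress kinases phosphorylate, differed by 0.055, and Eif2s3, the γ subunit, by 0.037.

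Of the 5 genes of eIF2B, which exchanges the nucleotide on eIF2, Eif2b2 differed most. It read 7.26, 7.32, 7.14 and 7.22 at 1 h and 7.32, 7.39, 7.35 and 7.30 at 3 h after saccharin. Its water values were 7.30, 7.39, 7.37 and 7.16 at 1 h and 7.43, 7.31, 7.31 and 7.34 at 3 h. The groups overlapped in each taste, and the difference was -0.074 ± 0.039 (SE), with an adjusted p of 0.482 in limma. The others lay between -0.039 (Eif2b5) and 0.035 (Eif2b3).

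The 4 genes of the eIF2α kinases had the values -0.053 for Eif2ak1 (the haem-regulated kinase HRI), -0.034 for Eif2ak2 (PKR, which responds to double-stranded RNA), 0.046 for Eif2ak3 (PERK, of the endoplasmic reticulum) and -0.0033 for Eif2ak4 (GCN2, which senses lack of amino acids). Eif2ak1, with the difference farthest from 0 among them, read 7.84, 7.83, 7.71 and 7.88 at 1 h and 7.86, 7.95, 7.86 and 7.79 at 3 h after saccharin. With water the levels were 7.86, 7.78, 7.86 and 7.78 at 1 h and 7.94, 7.91, 7.76 and 7.90 at 3 h. Its groups overlapped in each taste, and its adjusted p in limma was 0.635.

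The cap binders and their inhibitors had no member past the unadjusted threshold either. Eif4e, the cap-binding protein of canonical initiation, differed by 0.015 between the times (95% interval -0.067 to 0.10). Eif4e2, a relative linked to repression of translation, differed by -0.079, and Eif4e3 by -0.094 (adjusted p = 0.428 in limma). Eif4e3 read 6.67, 6.68, 6.59 and 6.69 at 1 h and 6.71, 6.90, 6.59 and 6.77 at 3 h after saccharin. After water it read 6.53, 6.75, 6.52 and 6.72 at 1 h and 6.71, 6.78, 6.70 and 6.76 at 3 h. The 1 h and 3 h arrays overlapped in each taste.

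Eif4ebp1, an mTORC1 target that sequesters eIF4E, read 6.25, 6.44, 6.30 and 6.25 at 1 h and 6.33, 6.17, 6.65 and 6.38 at 3 h after saccharin. The water arrays read 6.23, 6.24, 6.35 and 6.29 at 1 h and 6.44, 6.27, 6.60 and 6.27 at 3 h. In each taste the highest array was a 3 h array and the times overlapped, and the difference was -0.094 ± 0.062 (SE), with an adjusted p of 0.605 in limma. Eif4ebp2, the binding protein known as the main one of brain, differed by -0.0088 (95% interval -0.087 to 0.070), and Eif4enif1, which carries eIF4E into the nucleus, by 0.015.

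Of the genes that act late, Eif5a was past the unadjusted threshold. eIF5A, a protein modified with hypusine, also serves elongation and termination. It read 9.93, 10.07, 9.93 and 10.03 at 1 h and 10.09, 10.07, 10.04 and 10.03 at 3 h after saccharin. Its water values were 10.00, 10.03, 9.91 and 10.00 at 1 h and 10.14, 10.05, 10.05 and 10.01 at 3 h. The groups overlapped in each taste, and the difference was -0.072 ± 0.033 (SE), with an adjusted p of 0.394 in limma. Eif5, which triggers the hydrolysis of GTP on eIF2, differed by 0.054, Eif5b, the factor of subunit joining, by 0.0052, and Eif6, which keeps the large subunit apart, by -0.031.

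Within each taste the initiation factor genes gave the same count of calls. After saccharin limma called 0 of 44 genes between 1 h and 3 h, beside 0.348% of all probe sets, and 5 of 44 were at an unadjusted p under 0.05, beside 7.98%. These were Eif1ax, Eif4h, Eif1b, Eif4g2 (0.23) and Eif3e (0.13). After water it called 0 of 44, beside 0.125% of all probe sets, and 4 were at an unadjusted p under 0.05, beside 7.23%. These were Eif3e (0.16), Eif4h, Eif1ax and Eif3c (-0.14). The unadjusted count after saccharin was 2 without array C366 and 3 without array C370 or C375, and the count after water was 2 without array C376. Arrays of the 2 times did not overlap for Eif4h and Eif1b after saccharin (4.78% of all probe sets in either direction) and for Eif4h and Eif3b after water (4.35%). The exact permutation p of 4 arrays against 4 cannot go below 0.0286. The interaction, which tests whether the difference over time depended on taste, was called by limma for 0 of 44 genes and was at an unadjusted p under 0.05 for 0, beside 2.96% of all probe sets. Its smallest p-values in the 44 genes were those of Eif3d (0.11 ± 0.072, SE) and Eif3c (0.11 ± 0.10, SE, and 0.048 without array C377 or 0.063 without array C370). Over the arrays left out in turn, the value ran from 0.078 to 0.14 for Eif3d and from 0.048 to 0.15 for Eif3c. Of the 44 intervals for the interaction, 42 lay within 1.25-fold either way, as did 75.3% of all probe sets.

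The comparisons of saccharin with water called no initiation factor gene, and in the fit of all 16 arrays none was at an unadjusted p under 0.05. At 1 h limma called 0 of 44 genes, beside 0% of all probe sets, and 0 of 44 were at an unadjusted p under 0.05, beside 3.06%. At 3 h the counts were again 0 and 0 of 44, beside 0% and 3.37%. The unadjusted count at 1 h was 2 without array C379 and 1 without array C373, C375 or C378, and at 3 h it was 1 without array C365 or C371. The intervals bound differences in the normalized array signal, each for a single gene and not for the 44 genes jointly. They do not bound differences in messenger RNA that this signal does not carry, such as a shift shared by most genes. All 44 intervals lay within 1.25-fold either way at 1 h (94.4% of all probe sets) and at 3 h (94.0%). Together these intervals ran from -0.26 to 0.31 at 1 h and from -0.20 to 0.26 at 3 h. Values above 0, higher after saccharin, were found for 30 of 44 genes at 1 h, beside 51.8% of all probe sets, and for 29 of 44 at 3 h, beside 47.7%. The median difference was 0.012 at 1 h and 0.011 at 3 h, while the median over the 44 genes of a single array, after each gene was set to its own mean, varied between arrays with an SD of 0.029.

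The genes with the smallest p-values between tastes show the size of these differences. At 1 h Eif3c read 8.84, 9.14, 8.83 and 8.97 after saccharin and 8.80, 8.81, 8.88 and 8.80 after water. The saccharin arrays were spread widely and overlapped the water arrays, and the difference was 0.13 ± 0.067 (SE, unadjusted p = 0.0781 in limma). This difference was 0.061 without array C377 and up to 0.16 over the arrays left out in turn. At 3 h Eif3c read 9.04, 9.05, 8.82 and 8.98 after saccharin and 8.93, 9.04, 8.87 and 9.01 after water, and the difference was 0.013. Eif2b4, the δ subunit of eIF2B, read 6.12, 6.28, 6.09 and 6.08 after saccharin and 6.13, 5.95, 6.07 and 6.04 after water at 1 h, a difference of 0.10 ± 0.057 (SE). This difference was 0.051 without array C377, 0.065 without array C374 and up to 0.12 over the arrays left out in turn. At 3 h Eif2b4 read 6.07, 6.19, 6.16 and 6.19 after saccharin and 5.97, 6.15, 6.05 and 6.12 after water, a difference of 0.081 ± 0.057 (SE). Its groups overlapped at both times.

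At 3 h the smallest p-values were those of Eif3e and Eif3d. Eif3e differed by 0.092 ± 0.058 (SE) in the arrays given above, by 0.046 without array C368 and by up to 0.13 over the arrays left out. Eif3d, an eIF3 subunit that can itself bind the cap of some messenger RNAs, read 8.01, 8.12, 8.12 and 8.05 after saccharin and 8.06, 8.19, 8.12 and 8.26 after water, a difference of -0.080 ± 0.051 (SE). This difference was -0.046 without array C371 and reached -0.11 over the arrays left out in turn. At 1 h Eif3d read 8.05, 8.19, 8.08 and 8.05 after saccharin and 8.06, 8.06, 8.11 and 8.01 after water, a difference of 0.032. All 4 groups of Eif3d overlapped. The dimmer probe set of Eif3h gave -0.11 between tastes at 1 h where the brighter one gave -0.010, and neither was at an unadjusted p under 0.05.

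**Figure D3:**
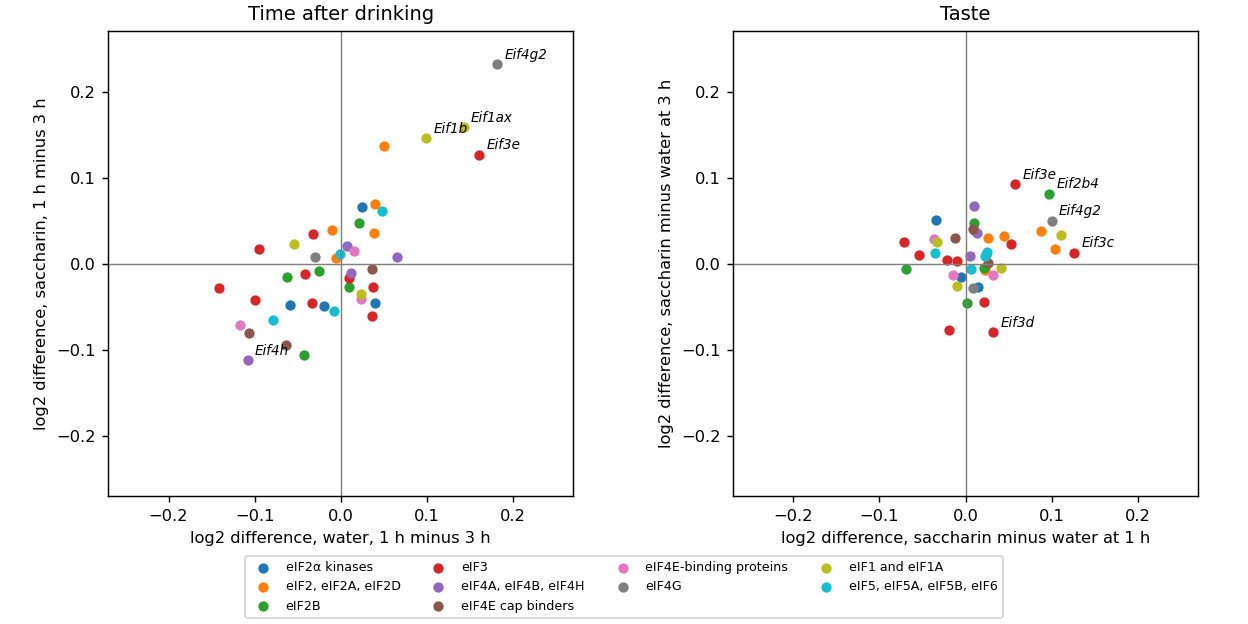
Log2 differences of the 44 initiation factor genes (points, coloured by role) in pairs of comparisons that use separate arrays, each of 4 arrays against 4. On the left, 1 h minus 3 h after water (x axis) and after saccharin (y axis), from -0.14 to 0.18 and from -0.11 to 0.23; on the right, saccharin minus water at 1 h (x axis) and at 3 h (y axis), from -0.071 to 0.13 and from -0.080 to 0.092.

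The other genes of translation were described by 5 lists, of which 57 genes were measured. Between 1 h and 3 h over both tastes limma called 1 of the 57, Ppp1r15a, in a comparison that called 1.01% of all probe sets. Ppp1r15a, also called GADD34, encodes the stress-induced subunit that brings a phosphatase to eIF2α and so undoes the work of the eIF2α kinases. It read 5.78, 6.12, 5.89 and 5.99 at 1 h and 5.59, 5.57, 5.74 and 5.66 at 3 h after saccharin. With water the levels were 5.91, 5.94, 5.99 and 6.11 at 1 h and 5.63, 5.74, 5.66 and 5.79 at 3 h. Within each taste all 1 h arrays lay above all 3 h arrays. The times did not overlap, in either direction, for 4.78% of all probe sets after saccharin and 4.35% after water. Across the tastes the lowest saccharin array at 1 h fell just below the highest water array at 3 h. Ppp1r15a was higher at 1 h by 0.29 ± 0.048 (SE, 1.22-fold), with an adjusted p of 0.00412 in limma. The difference was 0.30 after saccharin (adjusted p = 0.0712) and 0.28 after water (adjusted p = 0.188), neither called on its own. When the leptomeningeal marker mean entered the fit as a covariate the difference was 0.24 (adjusted p = 0.152 in limma). With the striatal marker mean it was 0.23 (adjusted p = 0.557 in limma), so the call did not hold in these fits. They called 0.230% and 0.0789% of all probe sets, beside 1.01% without a covariate. The striatal marker mean did not overlap between the times, so the fit with it separates time from that mean poorly.

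In the integrated stress response, 14 of 16 listed genes were measured, and 2 had an unadjusted p under 0.05 with higher values at 1 h, beside 6.25% of all probe sets, Ppp1r15a among them. Of mTORC1 and the kinases acting on initiation, 15 of 19 were measured, with 3 higher (6.25% of all probe sets) and 0 lower (5.77%) at that level. Rheb, the GTPase that activates mTORC1, had the smallest p among them. It read 9.11, 8.97, 8.94 and 8.93 at 1 h and 8.81, 8.89, 8.72 and 8.75 at 3 h after saccharin. After water it read 8.90, 8.99, 8.92 and 8.76 at 1 h and 8.85, 8.74, 8.70 and 8.86 at 3 h. The times did not overlap after saccharin (as for 4.78% of all probe sets in either direction) and overlapped after water. The difference was 0.15 ± 0.043 (SE), with an adjusted p of 0.122 in limma.

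Of the elongation factors, 9 of 10 were measured, and 1 had an unadjusted p under 0.05, with lower values at 1 h, beside 5.77% of all probe sets. This was Eef1b2, which recharges the elongation factor eEF1A. It read 8.15, 8.18, 8.08 and 8.07 at 1 h and 8.16, 8.26, 8.31 and 8.31 at 3 h after saccharin. The water arrays read 8.13, 8.21, 8.18 and 8.12 at 1 h and 8.13, 8.18, 8.20 and 8.21 at 3 h. The times overlapped in each taste, and the difference was -0.079 ± 0.033 (SE), with an adjusted p of 0.325 in limma. Of poly(A)-binding proteins and other partners of initiation, 14 of 20 were measured, and 2 were higher at that level, beside 6.25% of all probe sets. Cpeb1, which binds messenger RNAs and controls their polyadenylation, had the smallest p there (0.085 ± 0.037, SE). Of the 5 termination and release factors, all measured, 0 were at that level, and Gspt2, a GTPase that acts with the release factor, had the smallest p (0.084 ± 0.041, SE). Between tastes and for the interaction limma called 0 of the 57 genes, and 1 was at an unadjusted p under 0.05, between tastes at 1 h, beside 3.06% of all probe sets.

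**Figure D4:**
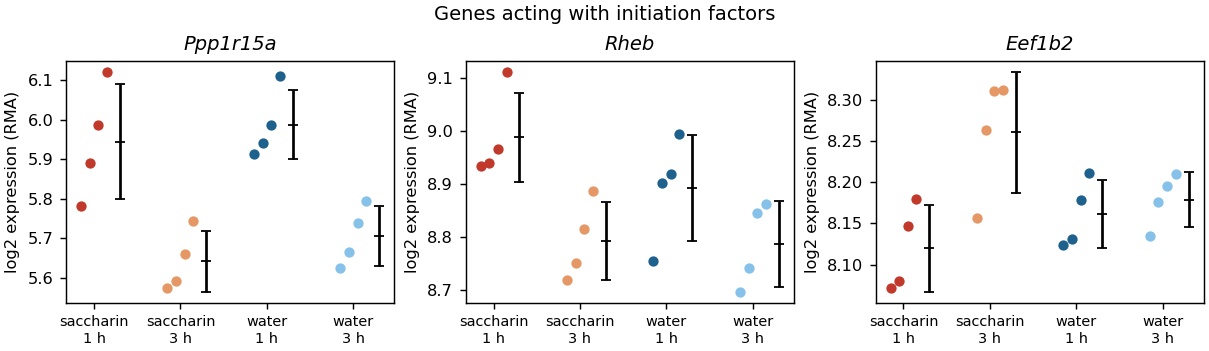
Log2 level of Ppp1r15a, Rheb and Eef1b2 in each array (points) with the mean and SD of the 4 arrays of a group (bars; each panel has its own y axis). The 1 h points of Ppp1r15a lie from 5.78 to 6.12 and the 3 h points from 5.57 to 5.79.

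Promoters were read for the genes with the smallest p between the times and for Ppp1r15a, to set their start regions side by side. RefSeq start sites on the GRCr8 build gave windows for 39 of the 44 initiation factor genes, 1 of them matched by symbol. The table has no window for Eif3e, Eif3h, Eif4b, Eif4e3 and Eif4ebp1. Each window holds the 250 bases before the start, written 5′ to 3′ on the gene's strand, with motif matches on either strand in capitals.
Eif4h (chr12:27719442-27719691, plus strand): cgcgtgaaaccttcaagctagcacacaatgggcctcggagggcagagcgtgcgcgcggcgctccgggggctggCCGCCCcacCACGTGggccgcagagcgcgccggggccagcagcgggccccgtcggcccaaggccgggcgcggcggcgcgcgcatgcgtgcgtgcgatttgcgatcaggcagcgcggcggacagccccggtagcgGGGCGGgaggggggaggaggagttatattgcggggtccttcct
Eif1ax (chrX:39322024-39322273, minus strand): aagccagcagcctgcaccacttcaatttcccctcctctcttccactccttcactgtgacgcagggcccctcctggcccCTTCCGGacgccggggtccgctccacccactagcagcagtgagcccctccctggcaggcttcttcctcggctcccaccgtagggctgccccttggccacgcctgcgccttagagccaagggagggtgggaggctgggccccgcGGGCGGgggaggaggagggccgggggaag
Ppp1r15a (chr1:105139597-105139846, minus strand): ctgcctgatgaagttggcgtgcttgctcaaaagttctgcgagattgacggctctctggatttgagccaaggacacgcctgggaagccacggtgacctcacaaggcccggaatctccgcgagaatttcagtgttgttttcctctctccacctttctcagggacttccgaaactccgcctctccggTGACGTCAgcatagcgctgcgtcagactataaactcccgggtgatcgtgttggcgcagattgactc
The motifs searched were the cAMP response element (TGACGTCA), the E-box (CACGTG), the GC box (GGGCGG), the ETS site (CCGGAAG) and the CArG box. In the 3 windows shown no matches overlap each other. The window of Eif4h holds an E-box and a pair of GC boxes on opposite strands, that of Eif1ax an ETS site and a GC box, and that of Ppp1r15a a cAMP response element 59 bases before the start. Over the 42 windows of initiation factor genes, the GC box was in 27 (30.5% of all 33469 windows), the ETS site in 17 (7.27%), the E-box in 5 (5.59%), the CArG box in 1 (1.5%) and the cAMP response element in 0 (1.59%). A match describes letters in a window and was not tested for binding.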

How the data were processed

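The authors processed the raw files of 16 arrays with the R package affy (its version was not found in the sources read). They quantile normalized the probe signals over all arrays together and summarised each probe set by robust multi-chip average (RMA), so the deposited values are log2 levels, and they were used as deposited. Quantile normalization gives all arrays the same distribution of probe signals, so a shift shared by most genes would not be seen. The array annotation replaced the alignment to the RGDv3.4 assembly that the paper used to select probe sets of 1 gene. Of 28826 probe sets it pairs 15209 with 1 gene and 306 with several, and 13311 have no entry there. Where a gene had several probe sets, the brightest was used. RefSeq on GRCr8 lists 58 protein-coding genes with such symbols, and the 14 others were not analysed here.

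A mean for each of the 4 groups was estimated in limma 3.58.1 (R 4.3.3, lmFit and eBayes) with a spread shared by all 16 arrays, and tests were two-sided. A gene was called at a Benjamini-Hochberg adjusted p under 0.05 over 15209 probe sets. The comparisons were time over both tastes, time in each taste, taste at each time and the interaction. They share arrays with each other, except the pair of times within each taste and the pair of tastes at each time. The fit was tested on simulated data. Replicates are separate rats, and their number limits the precision.

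Values per array are given for the 2 initiation factor genes with the smallest p in each comparison, for the gene with the largest difference over time in each of 10 roles, and, from the other lists, for called genes or otherwise the gene with the smallest p over time (for Cpeb1 and Gspt2 only the difference is given). The members, lists and tests were chosen with earlier results of these data known. Alternatives covered the probe sets in the fit, a filter on dim probe sets, centring of each array, the prior, array weights, only the arrays compared, 1 probe set per gene, marker covariates and each array left out in turn. The striatal covariate was chosen after seeing the data.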

Additional observations from a re-analysis of the deposited data

Results flagged for a closer look

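Among 72 groups of 4 arrays (18 named genes in 4 groups each), 6 held an array whose gap to the nearest of the others was large against the group's whole range, by a test that marks about 1 in 20 groups by chance. In the water 1 h group, Eif4h read 9.469 in array C374 and from 9.52 to 9.53 in the others, and Eif3c read 8.879 in array C376 and from 8.80 to 8.81 in the others. In the saccharin 1 h group, Eif2s2 read 8.432 in array C380 (8.52 to 8.53 in the others), Eif3d read 8.188 in array C377 (8.05 to 8.08 in the others) and Eif4e3 read 6.588 in array C379 (6.67 to 6.69 in the others). In the saccharin 3 h group, Cpeb1 read 6.608 in array C372 and about 6.65 in the others.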

How the results depend on the processing

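The count of initiation factor genes called between 1 h and 3 h over both tastes was 0 in limma, beside 153 of all probe sets, and 2 with a trended, robust prior (Eif4h, adjusted p = 0.0292, and Eif1ax, adjusted p = 0.0301), beside 218 of all probe sets (1.43%). It ran from 0 to 1 when each array was left out in turn, with Eif1ax called (adjusted p = 0.0463) without array C377 of saccharin 1 h. Over 25 alternative fits, the adjusted p in limma ran from 0.0292 to 0.494 for Eif4h and from 0.0301 to 0.703 for Eif1ax. It was under 0.05 in 1 of these fits for Eif4h and in 2 for Eif1ax. Their differences ran from -0.15 to -0.10 and from 0.12 to 0.17. The count at an unadjusted p under 0.05 was 6, beside 1827 of all probe sets, and 10 with array weights, beside 1961 (12.9%). It ran from 4 to 10 over the alternatives on all arrays and from 5 to 9 over the arrays left out. In every other comparison the count of initiation factor genes called was 0 under all alternatives run. The mean of the striatal markers did not overlap between the times, so a fit with it separates time from that mean poorly. With the mean of the striatal markers as a covariate, the median difference over time was 0.028 over both tastes and 0.025 after saccharin, and the difference of Eif2b2 was 0.046 in place of -0.074. Under that covariate the differences of Eif2s2, Rheb and Gspt2 were 0.31, 0.26 and 0.25, and those of Eif5a, Eef1b2 and Cpeb1 were -0.042, -0.030 and 0.044. With the leptomeningeal covariate those of Eif3e, Eif4ebp1 and Eif2ak1 were 0.079, -0.055 and -0.10. Eif4ebp1 differed by -0.049 without array C370 and -0.060 without array C369, and Eif2ak1 by -0.035 without array C379. Over all arrays left out in turn, these differences reached -0.13 for Eif4ebp1 and -0.073 for Eif2ak1. The cause was not tested. Leaving out an array gave medians over both tastes and after saccharin from -0.0085 to 0.0058 and from -0.016 to 0.0090. With the leptomeningeal covariate limma called 0.230% of all probe sets over both tastes, and with the striatal one 0.0789%. Of the other genes of translation, limma called 1 over both tastes and 0 with either marker covariate, and 1 with each array left out in turn. After saccharin it called 0, and 1 (Ppp1r15a, adjusted p = 0.0453) with array weights, and from 0 to 1 over the arrays left out, with Ppp1r15a called (adjusted p = 0.0243) without array C375 of saccharin 1 h. Ppp1r15a had a positive difference over time in all fits. The fit on only the arrays compared gives no interaction. No paired analysis was possible because the groups share no replicate numbers. The 16 arrays limit the precision, and the intervals of the initiation factor genes reached 1.28-fold over time in both tastes, 1.36-fold after saccharin and 1.31-fold after water.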
